A study of Mus musculus with 16 samples.

Results

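Fasting changed expression in the livers of both methylmalonyl-CoA mutase genotypes, and the question addressed here is for which genes the size or direction of that change differed between them. All 16 arrays of the series entered the comparison, 4 from each of 4 groups assigned by title, and 19938 genes with a single annotated symbol were tested. The value for each gene is its interaction: the fasted minus unfasted difference in mutants, less the same difference in heterozygotes. A positive interaction therefore means that the signal moved further up, or less far down, with fasting in mutants than in heterozygotes. Only 2 genes passed the test, Hsd3b5 and Xkr9, and the mutant signal of Hsd3b5 lay at the floor of the array in both feeding states.

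The mice were males aged 4 months. The control group was heterozygous, Mut +/-;TgINS-MCK-Mut, and the mutants were homozygous, Mut -/-;TgINS-MCK-Mut. Both genotypes carried the transgene, which supplies the enzyme in muscle under the muscle creatine kinase promoter, rather than in the liver. Heterozygotes were sampled unfasted and after 12 h without food, and mutants unfasted and after 8 to 12 h. Genotype and the length of the fast cannot be told apart in the interaction. Each array held RNA from the snap-frozen liver of 1 mouse, so each comparison is between different mice. The p-values below measure the spread between these mice, and no batch is named in the labels.

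The liver meets a fast by releasing glucose, oxidizing fatty acids and making ketone bodies, while it lowers the synthesis of fatty acids and cholesterol. Falling insulin and rising glucagon and glucocorticoid drive these changes, and fatty acids act through the nuclear receptor PPAR-alpha. Methylmalonyl-CoA mutase, encoded by Mut (current symbol Mmut), passes carbon from propionate, branched-chain amino acids and odd-chain fatty acids into the citric acid cycle.

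Values are log2 signals, so a difference of 1 is a doubling. Mmut, the targeted gene, lay between 9.66 and 10.10 on the 8 heterozygous arrays and between 7.87 and 8.33 on the 8 mutant arrays, with no overlap, and its interaction was -0.02 ± 0.16 (SE). The 7 hepatocyte markers averaged 12.73 to 13.20 on every array. One array stood apart: unfasted mutant replicate 1 averaged 10.69 over 14 genes of pancreatic acinar cells, against at most 6.80 on any other array. On it the digestive enzyme genes Cpa1 and Ctrb1 read 12.29 and 12.64. Interaction results are given with and without this array where it changes them.

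A floor was needed because the deposited table carries no detection calls. It was set at log2 6.59, the 90th percentile of the mean signal of 1016 olfactory receptor genes, which liver is not known to express. By this rule all 4 group means lay above the floor for 13918 genes, or 69.8%, and all 4 lay at or under it for 5447 genes. Both mutant groups, but neither heterozygous group, lay at or under it for 59 genes, and the reverse held for 55.

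Hsd3b5, a steroid-metabolizing enzyme of mouse liver that is higher in males, had the largest interaction. It read 9.92, 10.44, 11.27 and 11.72 in unfasted heterozygotes and 5.93, 6.86, 7.14 and 7.78 in fasted heterozygotes. It read 5.44 to 5.69 in unfasted mutants and 5.47 to 5.61 in fasted mutants. All 8 mutant arrays and 1 fasted heterozygous array thus lay under the floor, and the heterozygous groups did not overlap.

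The heterozygous signal of Hsd3b5 fell by 3.91 ± 0.35 (limma, adjusted p = 3.9e-05), while the mutant difference was -0.03 (limma, adjusted p = 0.96). The interaction was 3.87 ± 0.49, with a 95% interval of 2.83 to 4.92 (limma, adjusted p = 0.0147). The mutant signal lay under the floor before the fast, where no further fall can be read, so this value is in effect the heterozygous fall. With every value under the floor raised to it, all mutant values became equal. The interaction was then 3.74 (limma, adjusted p = 0.00627 over 14931 genes), and its smaller p does not bear on a mutant response. The call was lost when any of 6 arrays was left out (replicates 1, 3 and 4 of the unfasted mutants, replicate 3 of the unfasted heterozygotes, replicate 2 of each fasted group), with adjusted p from limma between 0.0534 and 0.0566.

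The family members Hsd3b2 and Hsd3b3 had all 4 group means above the floor. Hsd3b2 averaged 11.03 in unfasted and 9.41 in fasted heterozygotes, and 9.08 in unfasted and 7.43 in fasted mutants, where 1 array, at 6.36, lay under the floor. It fell in both genotypes, by 1.62 and 1.65 (limma, adjusted p = 0.0319 and 0.0225), and its interaction was -0.03 with a 95% interval of -1.10 to 1.05. Hsd3b3 fell by 1.61 in mutants (limma, adjusted p = 0.0263), and its interaction was -0.70 ± 0.52. Cross-hybridization among this family was not tested.

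Xkr9 encodes a member of the Xk-related family, some of which scramble membrane phospholipids in dying cells. It was the only called gene with all 4 groups above the floor. It read 9.75 to 9.92 in unfasted heterozygotes and 8.80 to 9.15 in fasted heterozygotes. In mutants it read 9.15 to 9.36 unfasted and 9.21 to 9.65 fasted. The heterozygous arrays separated fully by feeding state, while the mutant arrays of the feeding states overlapped.

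Xkr9 fell by 0.83 ± 0.10 in heterozygotes (limma, adjusted p = 0.000776) and differed by 0.12 in mutants (limma, adjusted p = 0.48). The interaction was 0.95 ± 0.14, with a 95% interval of 0.65 to 1.25 (limma, adjusted p = 0.04995), at the very edge of the threshold. The size held between 0.87 and 1.01 over 28 alternative settings, but the gene kept its call in only 8 of them. Its adjusted p from limma ranged from 0.0305 to 0.191. It was under 0.05 in 10 settings, among them the stricter threshold and the minimum size, by which the gene was not called. It reached 0.0854 without unfasted mutant replicate 1 and 0.191 without fasted heterozygous replicate 1. The neighbouring gene Lactb2 had an interaction of 0.27 ± 0.17.

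**Figure D1:**
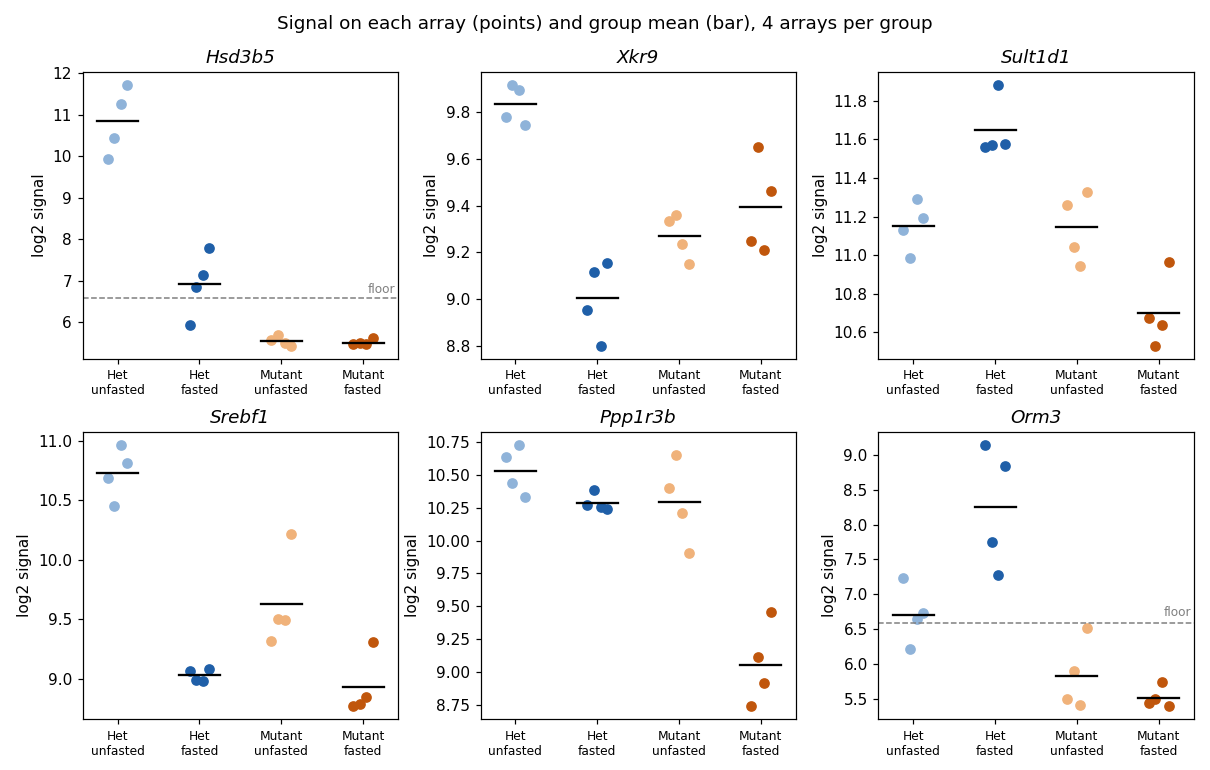
Log2 signal of 6 genes on each array (points) with the mean of each group of 4 (bar), by genotype and feeding state; the dashed line is the floor of 6.59. Hsd3b5 lies under the floor on all 8 mutant arrays, whereas the groups of Xkr9, Sult1d1, Srebf1 and Ppp1r3b lie wholly above it.

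These 2 calls are 0.01% of the genes tested. At an unadjusted p under 0.05, 2189 genes were reached, of which 1051, or 5.27% of all genes, were higher in mutants and 1138, or 5.71%, were lower. Without unfasted mutant replicate 1 the counts were 1568 higher and 2153 lower. The median standard error of an interaction was 0.10, against 0.07 for a fasting effect in 1 genotype, and the median 95% interval reached 0.20 to either side. An interaction of 1 or more in size occurred for 73 genes, 20 higher and 53 lower, with a median standard error of 0.65. Most large interactions thus came with a large spread, and only Hsd3b5 among them was called. Of the 53, 10 were acinar genes of the list above, and without unfasted mutant replicate 1 there were 25 higher and 31 lower.

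Sult1d1, a cytosolic sulfotransferase, came closest to the test in the negative direction and was the clearest case of opposite fasting responses. It read 10.98 to 11.29 in unfasted heterozygotes and 11.56 to 11.88 in fasted heterozygotes, which do not overlap. It read 10.95 to 11.33 in unfasted mutants and 10.53 to 10.96 in fasted mutants, which overlap by 1 array. It rose by 0.50 in heterozygotes and fell by 0.44 in mutants (limma, adjusted p = 0.0296 and 0.0381). The interaction, -0.94 ± 0.15, missed the threshold (limma, adjusted p = 0.107, range 0.0374 to 0.294 over alternatives). It was called under a second quantile normalization and without fasted mutant replicate 4.

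The next genes by p-value in the positive direction were Tom1l1, Zfp825, Zc3hav1, Usp6nl and Frg1, all above the floor in every group. Their interactions were 0.46 ± 0.08, 0.52 ± 0.10, 0.49 ± 0.09, 0.53 ± 0.10 and 0.39 ± 0.07, each with an adjusted p of 0.196 from limma. In each of them the group mean was lower in fasted than in unfasted heterozygotes and higher in fasted than in unfasted mutants. In the negative direction, Tmem200c, Sult1e1, Defb37 and Tex24 followed Sult1d1. All 4 lay under the floor in every group, with interactions of only -0.20 to -0.36.

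Further genes above the floor were picked after their values were seen, and none passed the test. Elovl2, an elongase of polyunsaturated fatty acids, read 12.52 to 12.61 in fasted mutants and at most 12.20 on every other array. It rose in mutants by 0.61 (limma, adjusted p = 0.00872) against a difference of -0.12 in heterozygotes, and its interaction was 0.73 ± 0.14 (limma, adjusted p = 0.215). Dpy19l3, a protein C-mannosyltransferase, averaged 9.36 in unfasted and 7.87 in fasted heterozygotes, and 7.22 and 7.34 in mutants. Its interaction was 1.61 ± 0.39 (limma, adjusted p = 0.266), and unfasted heterozygous replicate 2, at 8.12, lay apart from the other 3, at 9.63 to 10.06.

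Among genes with a negative interaction, Ppp1r3b, which targets protein phosphatase 1 to glycogen, read 8.74 to 9.45 in fasted mutants and 9.91 to 10.73 on every other array. It fell by 1.24 in mutants (limma, adjusted p = 0.0016) and differed by -0.25 in heterozygotes, and its interaction was -0.99 ± 0.22 (limma, adjusted p = 0.263). Ip6k2, an inositol hexakisphosphate kinase, and the cytochrome P450 gene Cyp2c39 rose in heterozygotes by 0.84 and 1.28 (limma, adjusted p = 0.0182 and 0.00636). Their mutant differences were -0.16 and 0.09, and their interactions were -1.0 ± 0.24 and -1.19 ± 0.29. For both, the unfasted mutant mean, 9.78 and 9.53, lay above the unfasted heterozygous mean, 9.05 and 8.84. Ahr, the aryl hydrocarbon receptor, had group means of 10.13 and 10.46 in heterozygotes and 10.78 and 10.48 in mutants, unfasted first, and an interaction of -0.63 ± 0.14.

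**Figure D2:**
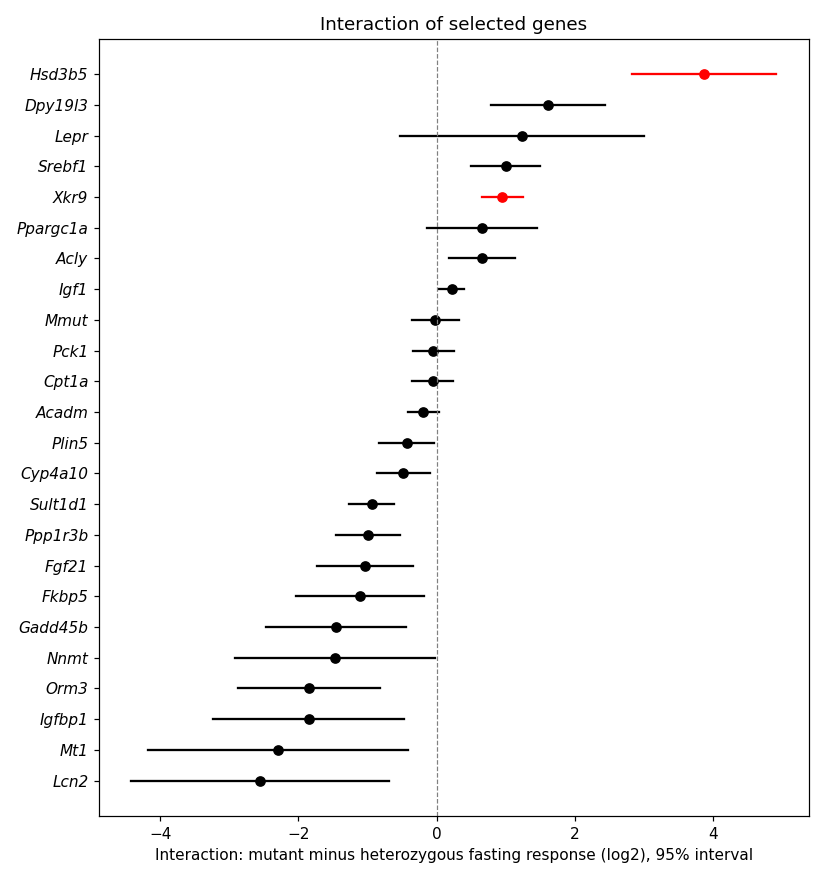
Interaction of 24 genes (point) with its 95% interval (line), on the log2 scale; red marks the 2 called genes, Hsd3b5 and Xkr9. The genes were picked for description, partly after their values were seen. The widest intervals belong to Lepr, Mt1 and Lcn2, and those of Mmut, Pck1, Cpt1a, Acadm, Ppargc1a and Lepr span 0.

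Small interactions pointed in different directions at different signal levels. Among the 5447 genes at or under the floor in all groups, 507 reached an unadjusted p under 0.05, and 468 of these, or 92.3%, were lower in mutants. Their median size was 0.17. Among the 13918 genes above the floor, 982 were higher and 615 lower, with a median size of 0.28.

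The array means moved with this split. The floor genes averaged 5.54 to 5.58 on the fasted mutant arrays, under all 8 heterozygous arrays, at 5.59 to 5.62, while the unfasted mutant arrays ranged from 5.56 to 5.65. Genes above the floor averaged 8.73 to 8.76 on the fasted mutant arrays and at most 8.72 on the other 12. After a second quantile normalization the floor genes split into 155 higher and 186 lower, and the genes above the floor into 621 higher and 719 lower. With arrays centred on their medians, the splits were 72 and 338 for the floor genes, and 1079 and 470 for the genes above the floor.

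Above the floor, the way most small interactions pointed thus changed with a second quantile normalization, but not with median centring. Leaving out 1 array changed the counts but not the leading direction in either class. Without unfasted mutant replicate 1 the floor genes gave 43 higher and 888 lower, and those above the floor 1496 and 1157. Without fasted mutant replicate 2 the genes above the floor gave 727 higher and 400 lower. Counts at an unadjusted p in the gene groups below stand against the shares over all genes, 5.27% higher and 5.71% lower, and were not tested against them. Of the 2 calls, only Xkr9 was measured above the floor in both genotypes.

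**Figure D3:**
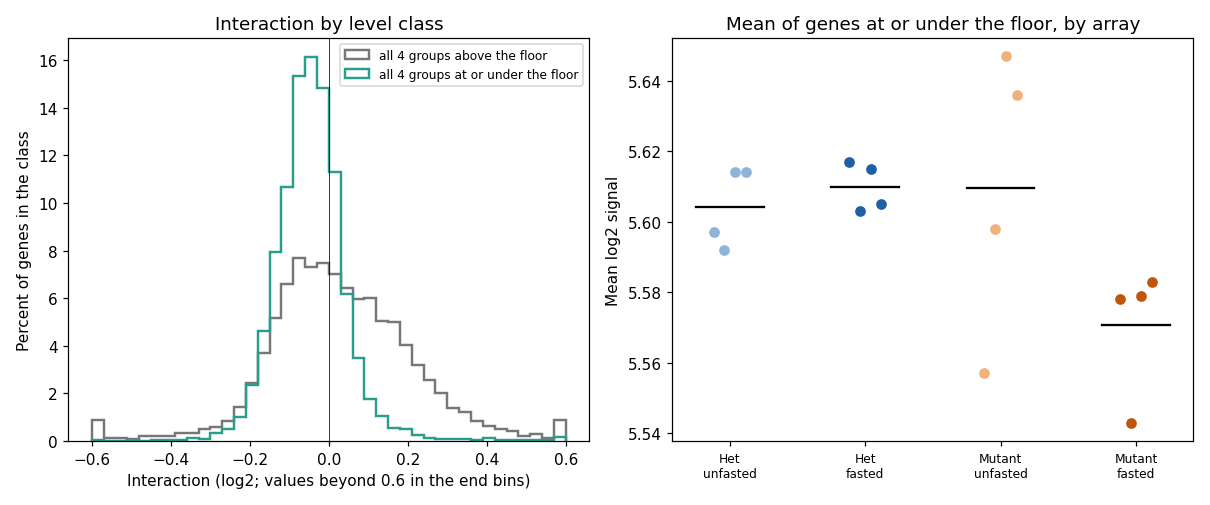
Left, the distribution of the interaction (log2) as a percent of the genes in each class, for genes with all 4 group means above the floor (grey) or at or under it (green). Right, the mean log2 signal of the genes at or under the floor on each array (points; bar, group mean). The green distribution is centred at -0.05, and the 4 fasted mutant arrays lie lowest but for unfasted mutant replicate 1.

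The fasting effects of the genotypes share no array, so their sizes can be set side by side. The spread used to test them was pooled over all groups, so each gene has the same standard error in both genotypes. A gene with a low pooled spread is more readily called in both, so the overlap of the called lists is not between independent tests. Fasting changed 313 genes in heterozygotes, 1.57% of those tested, with 146 rising and 167 falling. It changed 667 genes in mutants, 3.35%, with 464 rising and 203 falling. These counts are given only on the deposited scaling and with unfasted mutant replicate 1 included. The overlap was 78 genes, which is 24.9% of the heterozygous and 11.7% of the mutant list, and 77 of them moved the same way. The exception was Sult1d1.

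Most genes called in 1 genotype leaned the same way in the other. Of the genes called in heterozygotes, 87.9% had the same sign in mutants, and of those called in mutants, 86.1% had the same sign in heterozygotes. The same share over all genes was not counted, so these shares do not set the called genes apart. The genes that rose in heterozygotes had a median change of 0.46 there and 0.27 in mutants, and those that fell had medians of -0.55 and -0.17. The genes that rose in mutants had medians of 0.36 there and 0.14 in heterozygotes, and those that fell had -0.40 and -0.12. A list chosen for its change in 1 genotype is expected to read larger there, so these medians do not compare the genotypes. Across the 13918 genes above the floor, the effects correlated with r = 0.48, given as a description since genes are not replicates.

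Some of the fasting calls lay at the floor. All 4 groups were at or under it for 16 of the 313 genes called in heterozygotes and 55 of the 667 called in mutants. Both mutant groups but neither heterozygous group were there for a further 4 of the 313, Hsd3b5, Orm3, Olfm3 and 1 predicted gene. Both heterozygous groups but neither mutant group were there for a further 2 of the 667, Eid1 and Plgrkt. Orm3, an acute-phase orosomucoid, read 7.28 to 9.14 in fasted heterozygotes and 6.22 to 7.23 in unfasted ones, and at most 6.52 on any mutant array. It rose in heterozygotes by 1.54 (limma, adjusted p = 0.0327), and its interaction was -1.85 ± 0.48 (limma, adjusted p = 0.294). Eid1, an inhibitor of differentiation that binds transcriptional coactivators, read 6.85 to 7.25 in fasted mutants and at most 6.98 elsewhere, and its interaction was 0.62 ± 0.14.

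**Figure D4:**
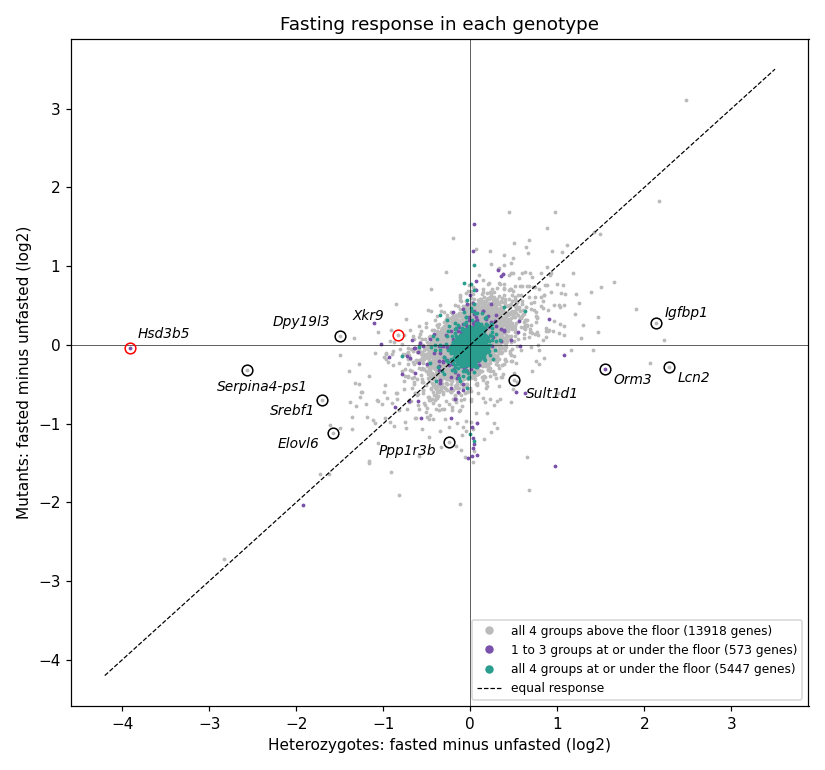
Fasted minus unfasted difference (log2) of each of 19938 genes in heterozygotes (x axis) and mutants (y axis); grey, all 4 groups above the floor; purple, 1 to 3 groups at or under it; green, all 4 at or under it. Circles mark named genes, red where called; Hsd3b5 and Xkr9 lie near 0 on the mutant axis, and Sult1d1 lies on opposite sides of 0.

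Many genes of fatty acid synthesis, though not all, fell with fasting. Of 23 measured members of the lipogenesis list, 11 fell and 0 rose in heterozygotes, and 8 fell and 2 rose in mutants, Elovl5 and Insig2. Over all 19938 genes, 167 fell and 146 rose in heterozygotes, and 203 fell and 464 rose in mutants. Fasting calls in this and the later lists were not tested against those counts. In the interaction 7 of the 23 were higher and 0 lower at an unadjusted p under 0.05, against 5.27% and 5.71% of all genes. The median interaction was 0.26, against -0.01 over all genes, and leaving out each array in turn gave 5 to 9 higher and 0 lower. None passed the adjusted test.

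Srebf1, the transcription factor that drives this program, led the list. It read 10.45 to 10.96 in unfasted and 8.98 to 9.08 in fasted heterozygotes. In unfasted mutants it read 9.31, 9.49, 9.50 and 10.21, and in fasted mutants 8.77 to 9.30. Its fall was 1.70 in heterozygotes and 0.70 in mutants (limma, adjusted p = 8.0e-05 and 0.0324), from a lower unfasted level to a similar fasted one. The interaction was 1.0 ± 0.24, with a 95% interval of 0.50 to 1.5 (limma, adjusted p = 0.266).

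Acly, which makes cytosolic acetyl-CoA, followed a similar course, with means of 10.99 and 9.61 in heterozygotes and 10.33 and 9.61 in mutants, and an interaction of 0.66 ± 0.22. Elovl6, an elongase of saturated fatty acids, started from like levels, 11.68 and 11.84, and reached 10.10 in heterozygotes and 10.72 in mutants. The fasted arrays of the genotypes did not overlap for Elovl6, at 9.79 to 10.28 and 10.49 to 10.91, and its interaction was 0.47 ± 0.20. Elovl5, which elongates polyunsaturated fatty acids as Elovl2 does, rose by 0.41 in mutants (limma, adjusted p = 0.0124) and differed by -0.02 in heterozygotes. Its interaction was 0.43 ± 0.11 (limma, adjusted p = 0.286). Other members differed little between genotypes: Fasn, the fatty acid synthase, fell by 1.72 and 1.64, and Thrsp, a regulator of lipogenesis, fell by 2.83 in heterozygotes and fell by 2.73 in mutants.

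Of 20 cholesterol synthesis genes, 9 fell in heterozygotes and 7 in mutants. In the interaction 2 were higher at an unadjusted p under 0.05 and 0 lower. These were Stard4, a sterol carrier, at 0.77 ± 0.23, and Sc5d, a late enzyme of the pathway, at 0.23 ± 0.09. The count higher was 6 without fasted mutant replicate 3. The median interaction was 0.13, and it ran from -0.02 to 0.32 when single arrays were left out.

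Some genes of fatty acid oxidation rose in each genotype. Of 17 members of the beta-oxidation list, all above the floor, 6 rose in heterozygotes and 5 in mutants. Their interactions ran from -0.19 to 0.03, and 0 of 17 reached an unadjusted p under 0.05. Cpt1a, which admits fatty acids to mitochondria, rose by 0.52 in heterozygotes and 0.46 in mutants (limma, adjusted p = 0.0154 and 0.0227), with an interaction interval of -0.36 to 0.24. Acadm and Hadh, enzymes of the oxidation spiral, had the smallest p-values, with interactions of -0.19 ± 0.10 and -0.10 ± 0.08.

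The wider PPAR-alpha list, which shares some of these genes, had 31 measured members. In heterozygotes 9 rose and in mutants 6 rose, and 0 fell in either. In the interaction 0 were higher and 5 lower at an unadjusted p under 0.05: Fgf21, Fgf1, Cyp4a10, Cyp4a31 and Angptl4. The median was -0.10, but it was 0.03 without unfasted heterozygous replicate 4.

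Fgf21, a hormone secreted by the liver in fasting, read 7.96 to 8.15 in unfasted and 8.12 to 8.48 in fasted heterozygotes. In mutants it read 9.03, 9.47, 10.03 and 10.39 unfasted and 8.60 to 9.44 fasted. All mutant arrays lay above all heterozygous ones. Its mean was higher after the fast in heterozygotes, by 0.27, and lower in mutants, by 0.76, and neither fasting effect was called. The interaction was -1.04 ± 0.33 (limma, adjusted p = 0.356).

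Cyp4a10, a fatty acid omega-hydroxylase, read 11.94 to 12.81 in unfasted heterozygotes and 12.92 to 13.25 on the other 12 arrays. Angptl4, an inhibitor of lipoprotein lipase, rose in heterozygotes by 1.08 (limma, adjusted p = 0.00885) against a mutant difference of 0.51, and reached 10.73 and 10.71. Its interaction was -0.57 ± 0.26. For both genes the fasted levels of the genotypes overlapped, and the unfasted mutant mean lay above the unfasted heterozygous mean. Cyp4a10 and Cyp4a31 are close relatives whose probes may detect each other, which was not tested.

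Of 21 genes of the gluconeogenesis list, 0 were called, and 3 were higher and 2 lower in the interaction at an unadjusted p under 0.05 by limma. With single arrays left out, 2 to 4 were higher and 1 to 4 lower. Pck1, the gluconeogenic phosphoenolpyruvate carboxykinase, rose by 0.60 and 0.55 (limma, adjusted p = 0.00768 and 0.0106), with an interaction interval of -0.35 to 0.25. G6pc, which releases free glucose, read 12.79 to 13.24 in every heterozygote. In mutants it read 11.68 to 12.69 unfasted and 12.74 to 13.24 fasted, and it rose by 0.73 (limma, adjusted p = 0.0314). Its interaction was 0.70 ± 0.24. Fbp1, fructose bisphosphatase, had an interaction of 0.21 ± 0.07.

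Ppargc1a, a coactivator of gluconeogenic and oxidative genes, rose in mutants by 1.33 (limma, adjusted p = 0.0154) and differed by 0.68 in heterozygotes. Its interaction was 0.66 ± 0.37, with a 95% interval of -0.14 to 1.45. Got1, a cytosolic aminotransferase, rose in mutants by 1.29 (limma, adjusted p = 0.0267) against 0.51 in heterozygotes, and its interval was -0.10 to 1.66. For neither gene does the interval separate the genotypes, although each was called in mutants alone.

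Genes that respond to glucocorticoid had a negative median. Of 19 measured members, 4 rose in heterozygotes and 1, Pck1, in mutants, against 146 and 464 of all 19938 genes. In the interaction 0 were higher and 7 lower at an unadjusted p under 0.05, and the median was -0.55. Leaving out each array in turn gave 5 to 10 lower and 0 or 1 higher. None passed the adjusted test.

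Tsc22d3, a glucocorticoid-induced leucine zipper protein, had the smallest p of the list, with means of 9.47 and 9.84 in heterozygotes and 9.49 and 9.12 in mutants. Its interaction was -0.74 ± 0.19 (limma, adjusted p = 0.294). Il6ra, the interleukin 6 receptor, rose in heterozygotes by 0.87 (limma, adjusted p = 0.0125) against 0.10 in mutants, and its interaction was -0.77 ± 0.23. Gadd45b, a stress-response gene, read 6.79 to 8.06 in unfasted heterozygotes and 8.24 to 9.997 on the other 12 arrays. It rose by 1.91 in heterozygotes (limma, adjusted p = 0.0102), and its interaction was -1.45 ± 0.48.

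The metallothionein genes Mt1 and Mt2, which bind zinc, varied widely among unfasted heterozygotes. Mt1 read 8.36, 8.46, 9.54 and 11.98 there, 10.59 to 12.39 in fasted heterozygotes, and 11.16 to 12.70 on all mutant arrays. Its interaction was -2.30 ± 0.89 (limma, adjusted p = 0.41), and that of Mt2 was -2.17 ± 0.90. Fkbp5, a cochaperone of the glucocorticoid receptor, also read highest on unfasted heterozygous replicate 1, at 9.62, against 8.35 to 8.62 on the other 3. It rose by 1.46 in heterozygotes (limma, adjusted p = 0.0247), and its interaction was -1.11 ± 0.44.

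Acute-phase genes leaned the same way. Of 24 measured members, 0 were higher and 6 lower at an unadjusted p under 0.05, with a median of -0.35, and 4 to 10 were lower when each array was left out in turn, 10 without fasted heterozygous replicate 3. Lcn2, a siderophore-binding protein that is also in the glucocorticoid list, had the most negative interaction, -2.56 ± 0.88. Its means were 9.03 and 11.31 in heterozygotes and 11.05 and 10.78 in mutants, and unfasted heterozygous replicate 1 again read highest of its group, at 10.68. Saa4, an apolipoprotein of this class, differed instead through the mutants, where it fell by 1.15 (limma, adjusted p = 0.0235) against -0.09 in heterozygotes. Its interaction was -1.06 ± 0.36.

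Insulin and leptin signalling genes were mixed, with 3 of 21 higher and 2 lower at an unadjusted p under 0.05, and 1 to 3 each way with single arrays left out. Igfbp1, an insulin-repressed binding protein, read 7.93 to 10.14 in unfasted and 10.28 to 12.02 in fasted heterozygotes. In mutants it read 11.29 to 12.87 unfasted and 11.76 to 13.03 fasted. It rose by 2.13 in heterozygotes (limma, adjusted p = 0.0272) and differed by 0.28 in mutants, with an interaction of -1.85 ± 0.65 (limma, adjusted p = 0.383). Unfasted mutants thus overlapped fasted heterozygotes and lay above all unfasted ones, and the feeding states of the mutants overlapped.

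Cish, an inhibitor of cytokine and growth hormone signalling, had means of 8.93 and 7.87 in heterozygotes and 8.44 and 8.59 in mutants, and an interaction of 1.21 ± 0.44. Lepr, the leptin receptor, read 6.18 to 7.75 on heterozygous arrays and 10.53 to 11.80 in fasted mutants. Unfasted mutants read 9.87, 10.05, 10.61 and 6.99, the last on replicate 4. The interaction was 1.24 ± 0.83, with a 95% interval of -0.52 to 3.0. Without that replicate it was 0.44, the lowest of the alternative settings. The highest was 1.65, and the gene was never called.

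Male-biased genes under growth hormone control included Hsd3b5. Of 21 measured members, 18 had all 4 group means above the floor. Of the 21, 6 were higher and 0 lower at an unadjusted p under 0.05, Hsd3b5 among them, and the median was 0.22. With single arrays left out, 4 to 6 were higher and 0 or 1 lower, and the median ran from 0.11 to 0.40. Ugt2b38, a glucuronosyltransferase, had an interaction of 0.51 ± 0.13 and Igf1, the growth factor made in response to growth hormone, of 0.22 ± 0.08. Nudt7, a peroxisomal coenzyme A diphosphatase, fell by 1.28 in heterozygotes (limma, adjusted p = 0.0133) against -0.24 in mutants, and its interaction was 1.03 ± 0.33. Serpina4-ps1 read 11.59 to 12.61 in unfasted and 9.15 to 10.39 in fasted heterozygotes, whereas its mutant arrays ranged from 5.62 to 8.81 on both sides of the floor. Its interaction was 2.25 ± 0.94. As with Hsd3b5, part of its mutant signal lay where a fall cannot be read. A list of female-biased genes had 18 measured members, 11 of them above the floor in all groups. Of the 18, 0 were higher and 1 lower at an unadjusted p under 0.05. Their median was -0.38, and it ran from -0.52 to -0.15 with single arrays left out.

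Chaperones of the endoplasmic reticulum moved by small amounts. Of 24 members, 4 fell in heterozygotes and 1 in mutants, against 167 and 203 of all 19938 genes. In the interaction 7 were higher and 1 lower at an unadjusted p under 0.05, with a median of 0.19. The count of 7 became 10 or 4 when unfasted mutant replicate 1 or 3 was left out. Pdia6, a protein disulfide isomerase, fell by 0.54 in heterozygotes (limma, adjusted p = 0.0357), its mean was 10.5 in both mutant groups, and its interaction was 0.54 ± 0.17. Its relative Pdia3 had an interaction of 0.31 ± 0.09. Sdf2l1, a cofactor of these chaperones, read 9.22 to 9.91 in fasted and 10.13 to 10.81 in unfasted heterozygotes, and 8.59 to 9.38 on all mutant arrays.

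The bile acid list had 0 of 22 members higher and 4 lower at an unadjusted p under 0.05, with a median of -0.13. Akr1d1, a steroid reductase of bile acid synthesis, fell by 0.86 in mutants (limma, adjusted p = 0.029) and differed by 0.07 in heterozygotes, with an interaction of -0.93 ± 0.28. Nr0b2, the repressor that bile acids induce, had an interaction of -1.36 ± 0.44. Enzymes that break down branched-chain amino acids and propionate, the pathway of the mutated enzyme, gave 0 of 27 at that level, with interactions of -0.21 to 0.20. Bckdhb and Bckdha, subunits of the branched-chain ketoacid dehydrogenase, had the smallest p-values there, at -0.18 ± 0.12 and -0.14 ± 0.10. Nnmt, which methylates nicotinamide, read 8.70, 10.86, 11.62 and 11.65 in unfasted heterozygotes, the first on replicate 2. It read 11.71 to 12.31 in fasted heterozygotes and 8.22 to 9.50 in mutants. Its interaction was -1.47 ± 0.68, and -0.80 without unfasted heterozygous replicate 2.

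**Figure D5:**
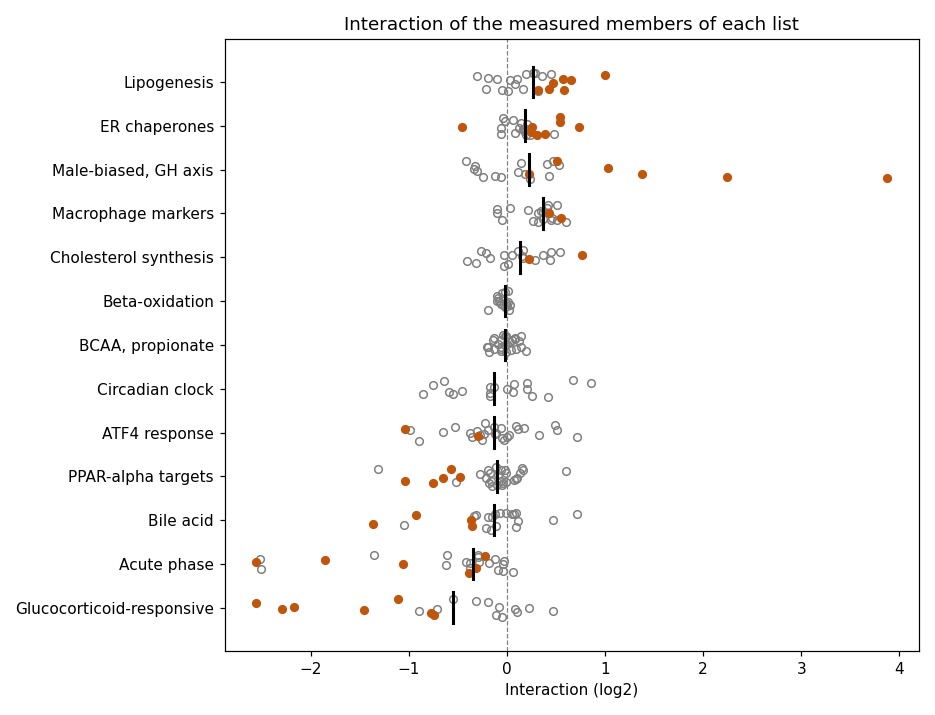
Interaction (log2) of each measured member (point) of 13 gene lists, with the list median (bar); filled points have an unadjusted p under 0.05. Beta-oxidation and branched-chain amino acid genes cluster around 0, lipogenesis has a median of 0.26 and glucocorticoid-responsive genes one of -0.55; 1 point, Hsd3b5 at 3.87, passed the adjusted test.

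Markers of other liver cells were measured beside these groups. In bulk liver, fewer cells of a type and less RNA per cell cannot be told apart. The 20 macrophage markers averaged 8.35 to 8.76 on heterozygous arrays, 8.56 to 9.15 in unfasted mutants and 8.94 to 9.31 in fasted mutants. Their median interaction was 0.37, and 2 of 20 were higher at an unadjusted p under 0.05, a count that ran from 0 to 9 when single arrays were left out. Clec4f and Csf1r, of the resident macrophages, led with 0.55 ± 0.22 and 0.43 ± 0.20. The 16 endothelial markers averaged 9.14 to 9.47 on heterozygous and 9.65 to 9.87 on mutant arrays, with a median interaction of 0.04. For 17 stellate cell and fibroblast markers the averages were 8.48 to 8.71 and 8.67 to 9.04, and the median was -0.11, with 2 of 17 lower at that level. Of 12 neutrophil markers 3 were lower, of 7 cholangiocyte markers 2, and of 16 lymphocyte markers 1 was higher and 1 lower. Only 4, 4 and 6 of these markers, in that order, had all 4 group means above the floor. The neutrophil count was 1 with median-centred arrays and 1 after a second quantile normalization. It ran from 1 to 4 when single arrays were left out. The 14 acinar genes had a median of -1.22, which was -0.12 without unfasted mutant replicate 1. The part of these cells in the interactions above was not tested.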

How the data were processed

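The deposited table holds log2 signals of 35556 probe sets on Affymetrix Mouse Gene 1.0 ST arrays; per the submitters' processing notes, the authors made it with Affymetrix Expression Console and RMA (background correction, quantile normalization and probe summary). That the scale is log2 was read from the values, 3.80 to 14.33. Versions, build and filters are not given in the sources used here. Each array took 300 ng of RNA, per the labels' protocols. Replicate arrays correlated at 0.985 to 0.996, and the number of arrays limits the precision.

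Symbols came from the platform annotation, updated through a RefSeq gene table of GRCm38.p6 (21698 of 21789 probe sets with 1 symbol matched). The 1621 probe sets with several symbols and 12146 unlisted ones were left out. The brightest probe set stood for each of 999 genes with several.

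One linear model of the 4 group means over the 16 arrays was fitted with limma 3.58.1 in R 4.3.3, with a variance trend and two-sided Benjamini-Hochberg adjusted p over all genes. A gene is called at an adjusted p under 0.05. Errors are standard errors, and 12 residual degrees of freedom remain. Scripts were tested on simulated data. Genes named were all called ones, the next 5 by p in each direction, a set given in advance, and the 2 of smallest p in most lists described. No such pair was named for the female-biased list or for cell markers other than those of macrophages. Others were chosen after their values were seen. One further gene was not analysed here. Members and lists were chosen with earlier results of these data known. Alternatives covered scaling, variance moderation, filters, the floor, thresholds and each array left out.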

Additional observations from a re-analysis of the deposited data

Results flagged for a closer look

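The test of the difference between fasting responses passed for Xkr9, at 0.95, and for Hsd3b5, at 3.87, where the mutant signal lay under the floor and a fall in mutants cannot be read. Single arrays stood far from the other 3 of their group in 7 of 84 groups checked, where the gap exceeded 0.829 of the group's range; chance gives about 1 in 20. Unfasted mutant replicate 1 read 9.33 for Tom1l1, against 9.17 to 9.19 on the others, and 8.29 for Zc3hav1, against 8.55 to 8.59. Fasted mutant replicate 1 read 10.35 for Zfp825, against 10.52 to 10.55, and fasted mutant replicate 4 read 9.30 for Srebf1, against 8.77 to 8.85. Fasted heterozygous replicate 3 read 11.88 for Sult1d1, against 11.56 to 11.58. Unfasted heterozygous replicate 2 read 9.66 for Mmut, against 9.86 to 9.89. Unfasted mutant replicate 4 read 11.80 for Cpt1a, against 12.12 to 12.14.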

How the results depend on the processing

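The 2 calls were made with limma at an adjusted p under 0.05. The number called was 1 with array weights, with median-centred arrays, with values raised to the floor and with a minimum size of 1 log2 unit; Hsd3b5 was the gene each time. It was 0 with robust variance moderation, with only genes above the floor tested, at an adjusted p under 0.01, and over all probe sets, an alternative added after seeing the data, where 3519 reached an unadjusted p under 0.05. Above the floor, the count of 1 became 0 with array weights, median-centred arrays, robust moderation, raised values, the 0.01 threshold and the minimum size, and 2 (Xkr9 and Sult1d1) after a second quantile normalization. Leaving out each array in turn gave 0 to 6 calls, and 0 to 5 above the floor. The 6, without unfasted heterozygous replicate 1, were Hsd3b5, Xkr9, Il6ra, Paxx, Slc16a5 and Spata22. Other floors (log2 5.84, 7.06 and 7.67) kept the count of 1. The cause of these changes was not tested.

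With the replicate number as a replicate block, the same 2 genes were called. The labels do not say whether equal numbers mark paired arrays. With group means removed, same-number pairs had a median correlation of 0.065, against -0.032 for other pairs between groups. Of the 24 same-number pairs, 9 correlated above 0.1 (range -0.12 to 0.25), and 6 of 16 arrays correlated best with their own number. These values do not settle whether the arrays are paired.

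Of 575 alternative values of named genes, 536 kept direction and call, 28 lost the call, 2 gained it and 9 changed sign. All 9 lay near 0: Mmut was 0.065 with array weights and 0.002 with median-centred arrays, and across single arrays left out Mmut ran from -0.101 to 0.077, Pck1 from -0.121 to 0.043 and Cpt1a from -0.161 to 0.03. The counts per list without each array, and under other scalings, were added after seeing the data. With 4 mice per group, a median gene's interaction is known to within 0.20 either way.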
